A study of Mus musculus with 8 samples.

Results

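The genes described are the early B cell factor genes Ebf1, Ebf2, Ebf3 and Ebf4 and the Onecut genes Onecut1, Onecut2 and Onecut3, all of which encode transcription factors of differentiating neurons. They were chosen by gene symbol, and all 7 of 7 were found among the 38355 genes counted. EBF proteins bind DNA through a zinc knuckle and pair through a helix-loop-helix. In frog and chick embryos they act around the proneural factors, at the step when a newborn neuron leaves the cell cycle and takes on neuronal traits. Onecut proteins bind DNA through a cut domain and a homeodomain. In the mouse spinal cord they are known for maintaining Isl1 in motor neurons and for shaping Renshaw cells, the inhibitory partners of motor neurons.

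Total RNA of C57Bl6 mouse embryos at E11.5, when ganglia and cord are still making neurons, was sequenced. The tissue was dorsal root ganglia with adjoining spinal cord at thoracic level. The 4 libraries of the first group came from Prdm12-/- embryos (KO), which lack the zinc-finger factor Prdm12, and the 4 libraries of the second group from Wild Type embryos (WT). The series asks which genes Prdm12 controls in somatosensory neurons. The labels give neither the deleted part of Prdm12 nor whether a library is 1 embryo or a pool, and the design text speaks of triplicates where 4 libraries a group are listed. The p-values therefore measure the spread between these libraries, which may be technical.

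Library totals lay between 23088908 and 27567399 counts in KO and between 25490087 and 67782435 counts in WT, where replicate 1 held 2.55 times the median of the other libraries. Values are CPM, the counts of a gene scaled to a common library total, after scaling for library composition, unless given per kilobase. Prdm12 averaged 1.25 ± 0.329 CPM in KO and 32.9 ± 7.86 CPM in WT (SD, n = 4 each), which matches the labels. Sensory ganglion genes summed to 600.2 to 698 CPM in KO and 644 to 854 CPM in WT, and pan-neuronal genes to 5489 to 6145 CPM in KO and 5653 to 6727 CPM in WT. Dorsal interneuron genes, most of them marks of the spinal cord, summed to 274 to 339 CPM in KO and 336 to 386 CPM in WT. WT replicate 1 stood apart, with the lowest Prdm12 of its group at 22.2 CPM and the lowest sum of sensory ganglion genes.

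The sequences that separate the EBF genes are shown because their proteins bind DNA through nearly the same residues, and counts per gene are of use only if reads of the copies differ. The stretches shown encode the zinc knuckle and run 5′ to 3′ on the coding strand, from the GENCODE M21 transcripts (GRCm38, the assembly of mm10). Capitals mark bases that differ from Ebf1 at the same place.
Ebf1: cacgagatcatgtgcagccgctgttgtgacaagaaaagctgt
Ebf2: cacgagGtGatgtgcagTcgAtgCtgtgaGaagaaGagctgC
Ebf3: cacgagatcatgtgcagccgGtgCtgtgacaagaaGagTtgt
Ebf4: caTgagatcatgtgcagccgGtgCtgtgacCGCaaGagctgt
Over these 42 bases Ebf2 differed from Ebf1 at 8, Ebf3 at 4 and Ebf4 at 7. Each stretch joins a pair of coding exons, exons 5 and 6 in Ebf1 and Ebf3 and exons 6 and 7 in Ebf2 and Ebf4. With the intron between, the stretches span chr11:44632808-44643425 (plus strand) in Ebf1, chr14:67239475-67247035 (plus strand) in Ebf2, chr7:137307529-137309315 (minus strand) in Ebf3 and chr2:130308610-130309697 (plus strand) in Ebf4. No run of 50 bases was common to the transcripts of any EBF genes.

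For the Onecut genes the stretch shown encodes the DNA recognition helix of the homeodomain, with capitals where Onecut3 differs from Onecut1.
Onecut1: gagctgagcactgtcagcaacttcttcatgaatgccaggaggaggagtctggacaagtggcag
Onecut3: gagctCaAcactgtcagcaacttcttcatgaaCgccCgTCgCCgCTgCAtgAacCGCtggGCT
Onecut3 differed at 19 of 63 bases. Both stretches lie within exon 2 on the plus strand, at chr9:74889473-74889535 in Onecut1 and at chr10:80514024-80514086 in Onecut3. A single run of 50 bases was common to Onecut1 and Onecut3 transcripts, and none was common to Onecut2 and either of them.

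A gene that overlaps Onecut1 bears on its count. The lincRNA gene Gm20649 lies on the same strand and its exons cover 2171 of the 4113 exon bases of Onecut1, or 52.8%. Gm20649 had 0 counts in every library. How reads in the common bases were assigned is not given in the sources used here, so whether Onecut1 was counted over all its exons or over the remaining 1942 bases alone cannot be told apart. The antisense gene Gm10860 covers 424 of 6928 exon bases of Ebf2 and had 31 counts in all libraries together, against 29956 for Ebf2. The antisense gene Gm45278 covers 355 of 9227 exon bases of Ebf3. Exons of no other annotated gene overlapped Ebf1, Ebf4, Onecut2 or Onecut3.

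Ebf1, Ebf2 and Ebf3 lay above all Onecut genes in every library when levels were set per kilobase of exon, while Ebf4 overlapped Onecut3 and Onecut2. Ebf3, which in frog embryos acts downstream of NeuroD, had the highest level, at 33.3 ± 2.45 CPM per kilobase in KO and 32.8 ± 1.76 CPM per kilobase in WT (SD, n = 4 each). Ebf2, a factor of cerebellar and brown fat development, had 17.9 ± 1.58 CPM per kilobase in KO and 17.2 ± 1.27 CPM per kilobase in WT. Ebf1, the factor of B cell commitment that is also active in the embryonic nervous system, had 12.3 ± 1.66 CPM per kilobase in KO and 13.8 ± 1.61 CPM per kilobase in WT. Ebf4, first described in olfactory neurons, was much lower, at 3.76 ± 0.387 CPM per kilobase in KO and 3.52 ± 0.615 CPM per kilobase in WT.

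Among the Onecut genes the levels per kilobase of Onecut3 and Onecut2 overlapped. Onecut3 had 2.57 ± 0.276 CPM per kilobase in KO and 2.88 ± 0.0875 CPM per kilobase in WT (SD, n = 4 each). Onecut2 had 2.42 ± 0.251 CPM per kilobase in KO and 2.90 ± 0.310 CPM per kilobase in WT. Onecut1, also known as HNF6 and best known from liver and pancreas, was lowest, at 1.04 ± 0.128 CPM per kilobase in KO and 1.30 ± 0.184 CPM per kilobase in WT. In the order Ebf3, Ebf2, Ebf1, Ebf4, Onecut3, Onecut2, Onecut1, the libraries of Ebf4 and Onecut3 overlapped, as did those of Onecut3 and Onecut2, and the other neighbours did not. That order depends on the length used. With the longest transcript in place of all exons, Ebf2 and Ebf1 overlapped as well (23.4 and 21.3 CPM per kilobase over all libraries). Without the bases common with Gm20649, Onecut1 averaged 2.47 CPM per kilobase over all libraries and overlapped Onecut2 at 2.66 CPM per kilobase.

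**Figure D1:**
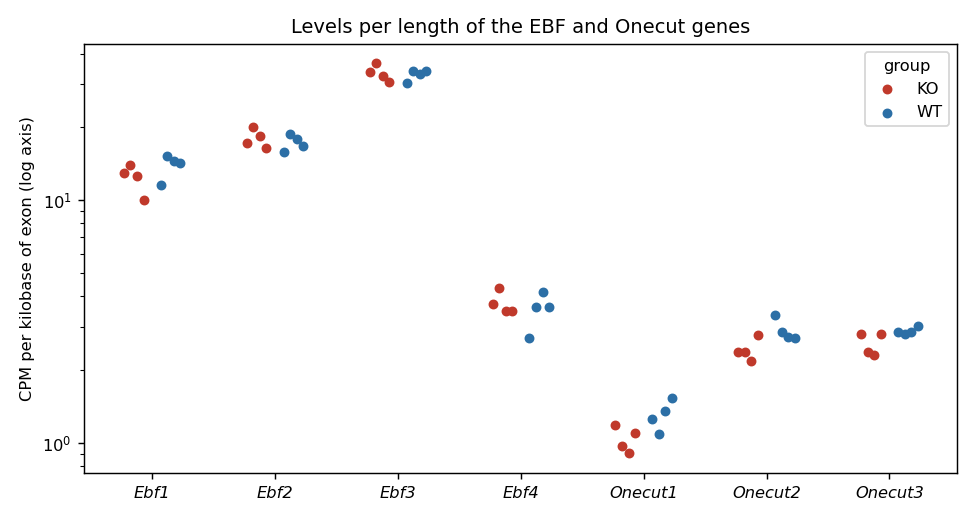
Level of each EBF and Onecut gene in CPM per kilobase of merged exon length (log axis), 1 point per library, KO left of WT for each gene. Ebf3 lies between 30.3 and 36.5 CPM per kilobase and Onecut1 between 0.902 and 1.52 CPM per kilobase.

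The share of each gene in its family overlapped between KO and WT libraries. Ebf3 gave 49.5 ± 0.998% of the summed EBF level per kilobase in KO and 48.8 ± 1.41% in WT (SD, n = 4 each). Ebf2 gave 26.7 ± 0.889% in KO and 25.5 ± 0.849% in WT. Ebf1 gave 16.5% to 19.1% in the KO libraries and 19.1% to 21.2% in the WT libraries, with KO replicate 1 just above WT replicate 1, the only overlap. Onecut3 gave 42.6 ± 1.15% of the summed Onecut level in KO and 40.7 ± 1.68% in WT, and the ranges met only at 41.6% to 41.7%. Onecut2 gave 40.2 ± 2.09% in KO and 41.0 ± 3.41% in WT, and Onecut1 gave 17.2 ± 0.988% in KO and 18.3 ± 2.34% in WT. The Onecut shares depend on the length used. Without the bases common with Gm20649, Onecut1 gave 30.5% in KO and 32.2% in WT. By that length Onecut2 gave 33.7% in KO and 34.05% in WT, and Onecut3 gave 35.8% in KO and 33.8% in WT. The summed Onecut level per kilobase was 6.36, 5.70, 5.37 and 6.67 CPM in KO replicates 1 to 4 and 7.45, 6.74, 6.92 and 7.23 CPM in WT replicates 1 to 4. These sums describe the libraries and were not tested.

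No EBF or Onecut gene passed the test between KO and WT. All 7 had enough counts to be tested, and 0 of 7 reached an adjusted p under 0.05 in edgeR's quasi-likelihood test, against 0.299% of the 16068 genes tested (0.243% lower and 0.056% higher in KO). At an unadjusted p under 0.05 there were 2 of 7, Onecut1 and Onecut2, each with the lower mean in KO, against 6.35% of all tested genes (3.32% lower and 3.03% higher in KO). DESeq2 and limma-voom also called 0 of 7, with 2 and 3 at an unadjusted p under 0.05. Over all genes that threshold held for 511 lower and 441 higher of 26003 in DESeq2. In limma-voom it held for 881 lower and 578 higher of 16068. KO and WT libraries overlapped in all 7, whereas among all tested genes every KO library lay below every WT library in 2.45% and above in 1.69%. The members' median log2 fold change was −0.16, beside −0.003 over all tested genes. In a bulk sample of this kind, fewer cells of a type and less RNA per cell cannot be told apart.

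**Figure D2:**
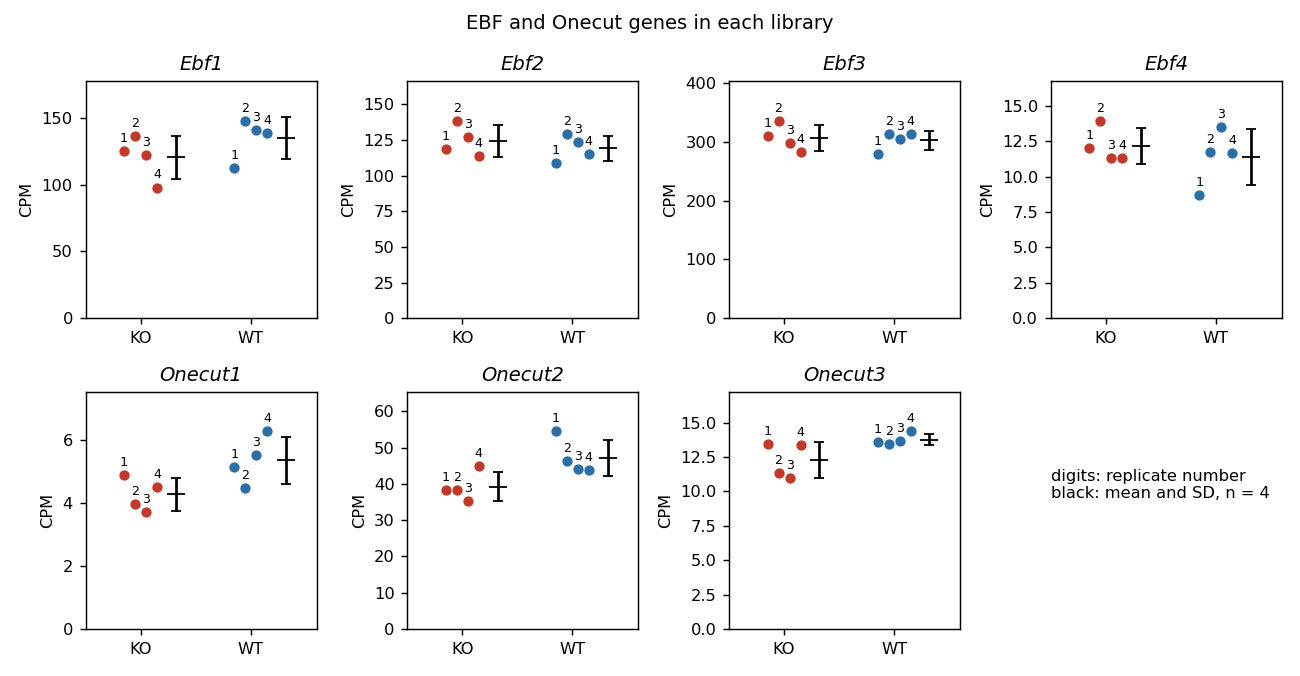
CPM of each gene in each library, KO left of WT, with the replicate number at each point and the mean and SD in black (n = 4 each). In every panel the points of KO and WT overlap. In Onecut2 the overlap comes from KO replicate 4 alone, and in Onecut3 from KO replicate 1 at the lower edge of WT.

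Ebf1 (ENSMUSG00000057098, mm10 chromosome 11, 44617317 to 45008091, plus strand) had 125, 136, 122 and 97.8 CPM in KO replicates 1 to 4 and 112, 148, 141 and 138 CPM in WT replicates 1 to 4. The lowest library of each group, KO replicate 4 and WT replicate 1, stood clear of the other 3. Dixon's outlier test flagged neither (q = 0.63 and 0.736), but with 4 values that test can easily miss an outlier. The log2 fold change was −0.16 (SE 0.11, edgeR adjusted p = 0.905), and the 95% interval of the fold reached from 0.754 to 1.06. Without WT replicate 1 the log2 fold change was −0.23 (unadjusted p = 0.0352, adjusted p = 0.613), and without KO replicate 4 it was −0.07 (adjusted p = 0.942). The size of the difference in Ebf1 therefore rests on which of these libraries is counted.

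Ebf2 (ENSMUSG00000022053, mm10 chromosome 14, 67233292 to 67430918, plus strand) had 118, 139, 127 and 114 CPM in KO and 109, 129, 123 and 115 CPM in WT. The ranges lay almost on top of each other. In edgeR the KO mean was higher by a log2 fold change of 0.06 (SE 0.07, adjusted p = 0.947), with a 95% interval of the fold from 0.941 to 1.16. Leaving out 1 library gave 0.0071 (without KO replicate 2) to 0.106 (without KO replicate 4), and it was 0.0287 without WT replicate 1 and 0.103 without WT replicate 2.

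Ebf3 (ENSMUSG00000010476, mm10 chromosome 7, 137193673 to 137314445, minus strand) had 309.6, 337, 298 and 283 CPM in KO and 279, 313, 305 and 314 CPM in WT. This most abundant member also had the narrowest interval, with a log2 fold change of 0.02 (SE 0.06, adjusted p = 0.982) and a fold between 0.926 and 1.11. For the bulk sample as a whole, a change in Ebf3 of the size measured in Neurod1 lies outside that interval. A change in only some of the cells that express Ebf3 cannot be read from bulk counts. The sign of the difference turned without KO replicate 2 (−0.0274) and without WT replicate 1 (−0.0102), and the value was 0.0585 without KO replicate 4.

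Ebf4 (ENSMUSG00000053552, mm10 chromosome 2, 130295169 to 130370481, plus strand) had 12.03, 14.0, 11.3 and 11.3 CPM in KO and 8.69, 11.7, 13.5 and 11.7 CPM in WT. WT replicate 1 was the lowest of all libraries. edgeR gave a log2 fold change of 0.11 (SE 0.13, adjusted p = 0.956), with a fold between 0.886 and 1.31. Without WT replicate 1 it was −0.01.

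Onecut1 (ENSMUSG00000043013, mm10 chromosome 9, 74861921 to 74891781, plus strand) had 4.88, 3.96, 3.71 and 4.50 CPM in KO and 5.12, 4.46, 5.53 and 6.27 CPM in WT. These values rest on 99 to 135 counts in each KO library and 121 to 345 counts in each WT library. Of the WT libraries only replicate 2 lay within the KO range. The log2 fold change was −0.32 (SE 0.13, unadjusted p = 0.0316, adjusted p = 0.731), with a fold between 0.653 and 0.977. The unadjusted p was above 0.05 without KO replicate 2 (0.0722), KO replicate 3 (0.0984), WT replicate 3 (0.0643) or WT replicate 4 (0.106).

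Onecut2 (ENSMUSG00000045991, mm10 chromosome 18, plus strand), which acts redundantly with Onecut1 in motor neurons, had 38.3, 38.4, 35.4 and 44.99 CPM in KO and 54.5, 46.2, 44.1 and 43.7 CPM in WT. The highest KO library, replicate 4, was the only one to reach the WT range. WT replicate 1 was above the other WT libraries. Dixon's outlier test did not flag it (q = 0.773), but with 4 values that test can easily miss an outlier. The log2 fold change was −0.27 (SE 0.09, unadjusted p = 0.0106, adjusted p = 0.56), with a fold between 0.726 and 0.948. It was −0.18 without WT replicate 1 (adjusted p = 0.569) and −0.34 without KO replicate 4 (adjusted p = 0.384).

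Onecut3 (ENSMUSG00000045518, mm10 chromosome 10, 80494835 to 80517276, plus strand) had 13.4, 11.3, 10.9 and 13.4 CPM in KO and 13.6, 13.4, 13.6 and 14.4 CPM in WT. KO replicate 1 reached the lower end of the WT range and KO replicate 4 lay just under it, while KO replicates 2 and 3 lay below it. The log2 fold change was −0.16 (SE 0.08, unadjusted p = 0.0696, adjusted p = 0.822), with a fold between 0.787 and 1.01. It was −0.11 without KO replicate 3, and −0.21 without KO replicate 1 or without KO replicate 4 (unadjusted p = 0.0373 and 0.0367, adjusted p = 0.773 and 0.904).

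**Figure D3:**
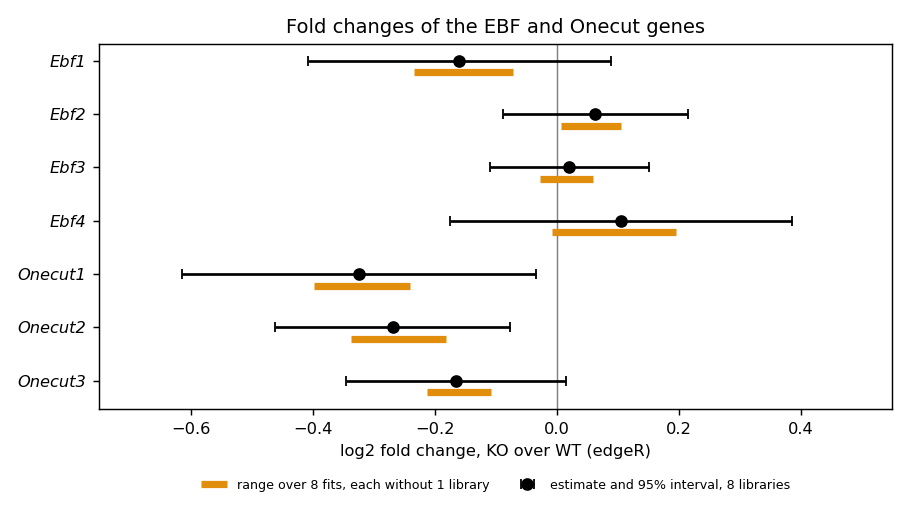
Log2 fold change of each gene, KO over WT, with its 95% interval over 8 libraries (black) and the range of the estimate over 8 fits that each leave out 1 library (orange). The intervals of Onecut1 and Onecut2 lie below 0 before adjustment, and those of the other 5 genes include 0.

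The genes of a family deviated to the same side in some libraries and not in others. The EBF genes were split in KO replicates 1 and 3 and WT replicate 4. Onecut1 and Onecut2 lay on opposite sides in KO replicates 1 and 4 and WT replicate 2. Deviations are from the mean of all 8 libraries, so a difference between KO and WT that genes have in common brings them closer. With each gene's own mean taken out, the root mean square difference of log2 CPM over the 8 libraries was 0.0630 between Ebf2 and Ebf3, the closest pair. It lay between 0.0630 and 0.181 in the 6 pairs within the EBF family, between 0.129 and 0.205 in the 3 pairs within the Onecut family, and between 0.172 and 0.338 in the 12 pairs between families, so the ranges overlap. WT replicate 1 was below the mean of all 4 EBF genes, from −0.12 in Ebf3 to −0.42 in Ebf4, and above the mean of all 3 Onecut genes, up to 0.35 in Onecut2. KO replicate 2 showed the opposite, above the mean of all EBF genes and below that of all Onecut genes. These libraries also lay at opposite ends for 13 mesenchyme markers, whose summed level was highest in KO replicate 2 at 5863 CPM and lowest in WT replicate 1 at 4229 CPM. In KO replicate 4 the mesenchyme sum was the next highest at 5736 CPM, and all 4 EBF genes lay below their means, Ebf1 by −0.37. Pan-neuronal genes summed to 5716, 6145, 5498 and 5489 CPM in KO replicates 1 to 4 and 5653, 6508, 6584 and 6727 CPM in WT replicates 1 to 4. EBF genes are also active in mesenchyme, and a fit with mesenchyme and muscle markers as a term is given with the markers of other tissues. Whether the tissue in each library bears on these deviations was not tested.

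**Figure D4:**
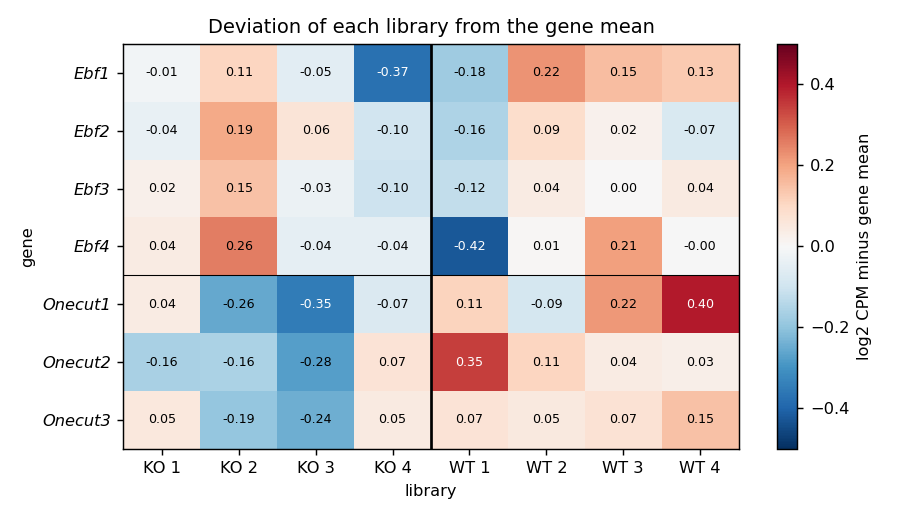
Log2 CPM of each gene in each library minus the gene's mean over the 8 libraries, KO columns left of WT columns, EBF genes above Onecut genes. WT replicate 1 is low for the EBF genes and high for Onecut2, and KO replicates 2 and 3 are low for the Onecut genes.

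By the same measure, among 10587 other genes with a mean of at least 10 CPM, the gene most like Ebf3 was Tle4, a corepressor of the Groucho family, at a root mean square difference of 0.0246. The closest to Ebf2 was Arxes1 at 0.0303, the closest to Ebf1 was 2510009E07Rik at 0.0429, and the closest to Ebf4 was Ptx3, a secreted pentraxin, at 0.0246. Onecut3 was closest to Cntfr, a subunit of the ciliary neurotrophic factor receptor, at 0.0489, and next to Sox11, a factor of newborn neurons, at 0.0548. Onecut2 was closest to Chchd4 at 0.0835 and next to Hey1, an effector of Notch signalling, at 0.0935. The nearest gene to Onecut1 was Trim9, a ubiquitin ligase of neurons, at 0.121. These distances grow with a gene's own spread, whose root mean square was 0.229 in Onecut1, 0.183 in Onecut2 and 0.0811 in Ebf3, so they do not rank the matches of different genes. Trim9 had 27.6 CPM in KO and 34.8 CPM in WT and fell by 0.34 on the log2 scale (edgeR adjusted p = 0.0429). The patterns compared still hold the difference between KO and WT, so genes near Onecut1 are partly picked for being lower in KO. Its next nearest genes, Btbd17 and Slc25a33, did not pass (edgeR adjusted p = 0.429 and 0.806), nor did the nearest gene of any other member.

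The factors that act beside the EBF genes in neurogenesis did change in part. Of 19 neuronal differentiation factors 3 fell, against 0.243% of all tested genes, 0 rose and 16 did not pass. The median log2 fold change of the list was −0.14. Neurod1, which frog studies place in a loop with EBF genes, had 14.3, 12.5, 14.2 and 12.1 CPM in KO and 19.0, 26.4, 26.4 and 23.4 CPM in WT, and fell by 0.83 on the log2 scale (SE 0.11, adjusted p = 0.00987). Nhlh1, a factor of neurons that have just left the cell cycle, had 48.2 to 60.3 CPM in KO and 78.2 to 87.2 CPM in WT and fell by 0.55 (adjusted p = 0.00636). Neurog1, which starts later sensory neurogenesis, had 24.7 to 30.8 CPM in KO and 37.2 to 42.0 CPM in WT and fell by 0.48 (adjusted p = 0.0182). In each of these 3, named because they passed, every KO library lay below every WT library, which their small p makes likely. Over the whole list that held for 6 of 19, against 0 of the 7 EBF and Onecut genes and 2.45% of all tested genes. The list was written with earlier results of these data known.

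Of the remaining genes of that list, Zfp423 and Zfp521 encode partners of EBF proteins. Neurod4, also called NeuroM, had 32.8 ± 5.04 CPM in KO and 42.7 ± 2.99 CPM in WT (SD, n = 4 each) and did not pass (log2 fold change −0.38, adjusted p = 0.33). Zfp423, a zinc-finger protein that binds EBF proteins, had 133 ± 11.1 CPM in KO and 133 ± 5.41 CPM in WT (log2 fold change 0.01, adjusted p = 0.995). Zfp521, a related EBF partner, had 147 ± 3.64 CPM in KO and 144 ± 6.62 CPM in WT (log2 fold change 0.03, adjusted p = 0.959). Insm1, a zinc-finger factor of neuronal progenitors, did not pass either (log2 fold change −0.33, adjusted p = 0.135).

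None of 14 pan-neuronal genes passed (edgeR), all 14 had a log2 fold change below 0, and 7 had an unadjusted p under 0.05. Their median was −0.15, where 51.6% of all tested genes lay below 0. Nefm, a neurofilament gene, had 842 ± 25.3 CPM in KO and 1028 ± 82.2 CPM in WT (SD, n = 4 each; adjusted p = 0.0916). Tubb3, the neuronal tubulin, did not pass (log2 fold change −0.15, adjusted p = 0.708), and Elavl4 and Nefl had −0.23 and −0.17 (adjusted p = 0.345 and 0.598). Of 20 sensory ganglion genes tested 4 fell, against 0.243% of all tested genes, and 0 rose, with a median of −0.28. Among these Tlx2 fell by 0.74, Pou4f1, which encodes Brn3a, by 0.52, and Eya2 by 0.39 on the log2 scale.

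Cells in which the Onecut genes are known to act gave mixed values. Isl1, the factor that Onecut1 and Onecut2 maintain in mouse motor neurons and that sensory neurons express as well, had 72.1, 74.4, 68.4 and 54.0 CPM in KO and 64.4, 91.4, 97.8 and 88.0 CPM in WT. WT replicate 1 lay within the KO range, and the log2 fold change was −0.34 (adjusted p = 0.751). Of 6 motor neuron genes tested, 1 rose (Lhx3, by 0.56) and 0 fell, where 0.056% of all tested genes rose. Mnx1, the motor neuron homeobox gene, had 11.97 ± 1.95 CPM in KO and 12.3 ± 1.07 CPM in WT (SD, n = 4 each; adjusted p = 0.978). Slc5a7, the choline transporter gene, and Isl2 had log2 fold changes of 0.16 and −0.42 (adjusted p = 0.901 and 0.0916).

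Of 7 V1 and Renshaw cell genes tested 1 fell (Foxd3, by 0.57) and 0 rose, where 0.243% of all tested genes fell. Foxd3 is also on the list of crest glia markers, so its fall cannot be assigned to V1 cells. Calb1, the calbindin gene of Renshaw cells, had 2.81 ± 1.23 CPM in KO and 4.64 ± 0.423 CPM in WT (SD, n = 4 each), and its log2 fold change of −0.73 did not pass (adjusted p = 0.682). En1, the marker of the V1 class, did not pass (log2 fold change −0.54, adjusted p = 0.393). None of 12 dorsal interneuron genes passed (edgeR, 2 at an unadjusted p under 0.05, median −0.16), the smallest p being that of Tlx3 at a log2 fold change of −0.52 (adjusted p = 0.337), followed by Lhx1, Pax2 and Barhl1 at −0.17, −0.39 and −0.26 (adjusted p = 0.748, 0.796 and 0.813). None of 11 neural progenitor genes passed (edgeR, 5 at an unadjusted p under 0.05, median −0.18), with Sox2, Hes5, Sox3 and Vim at −0.22, −0.21, −0.29 and −0.10 (adjusted p = 0.632, 0.643, 0.743 and 0.743). Among all tested genes 3.32% were lower in KO at an unadjusted p under 0.05.

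**Figure D5:**
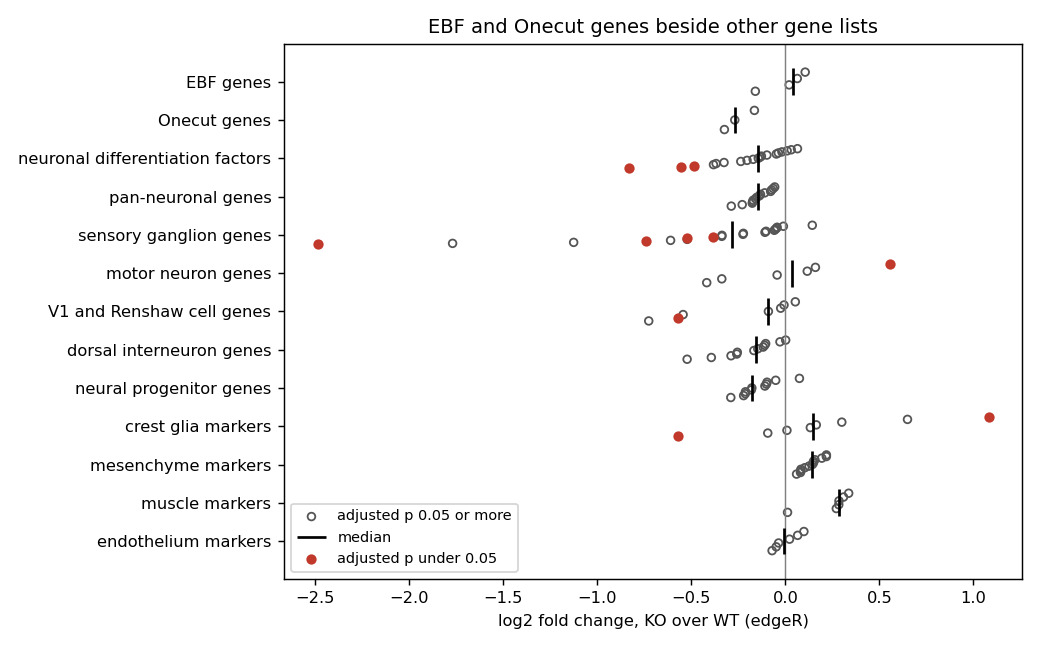
Log2 fold changes, KO over WT, of the EBF and Onecut genes and of the genes of 11 other lists (the B cell list is not drawn), 1 point per tested gene, with the list's median as a black bar and genes at an adjusted p under 0.05 filled red. The EBF and Onecut genes hold no red point, while neuronal differentiation factors hold 3 and sensory ganglion genes 4, each left of 0.

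Tissue other than neurons that can hold EBF or Onecut transcripts was checked by its markers. All 13 mesenchyme markers had a log2 fold change above 0 (median 0.14) and 0 passed (edgeR, 1 at an unadjusted p under 0.05). Their summed level was 5088 to 5863 CPM in KO and 4229 to 5421 CPM in WT, and Pdgfra, Col3a1, Col2a1 and Twist2 led by p with log2 fold changes of 0.16, 0.13, 0.22 and 0.14. All 6 muscle markers were above 0 (median 0.28) and 0 passed (edgeR, 4 at an unadjusted p under 0.05, against 3.03% higher among all tested genes). They summed to 495 to 716 CPM in KO and 439.8 to 534 CPM in WT. Myod1, Des, Myl4 and Actc1 had log2 fold changes of 0.34, 0.28, 0.27 and 0.31. With the mean log2 CPM of these markers as a term in the fit, the log2 fold changes were −0.21 in Ebf1, −0.03 in Ebf2, −0.0027 in Ebf3 and −0.09 in Ebf4, so Ebf2, Ebf3 and Ebf4 changed sign. In that fit those of Onecut1, Onecut2 and Onecut3 were −0.22, −0.25 and −0.16, and 0 of 7 had an unadjusted p under 0.05 (edgeR). Of all 16068 tested genes, 491 lower and 201 higher ones did. The marker mean lay between 7.03 and 7.23 in KO and between 6.83 and 7.05 in WT, so it largely follows the group. With it the SE grew from 0.132 to 0.202 in Onecut1, 0.0875 to 0.140 in Onecut2 and 0.0822 to 0.126 in Onecut3. The fit therefore cannot tell the markers from the group.

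Of 8 crest glia markers 1 rose (Egr2, by 1.08) and 1 fell (Foxd3, already counted among the V1 genes). Of all tested genes 0.056% rose and 0.243% fell. Cdh19 did not pass (log2 fold change 0.30, adjusted p = 0.827). None of 6 endothelium markers passed (edgeR, 0 at an unadjusted p under 0.05), and Esam, Tek, Cdh5 and Emcn had log2 fold changes of 0.10, −0.07, 0.07 and −0.05. B cell markers summed to 5.41 to 7.27 CPM in KO and 5.99 to 10.1 CPM in WT, and 4 of the 7 were below the limit for testing. Among the 3 tested, Pax5, which is also a neural gene, had 2.82 ± 0.36 CPM in KO and 3.803 ± 0.431 CPM in WT (SD, n = 4 each; adjusted p = 0.527), and Rag1 and Cd79b had log2 fold changes of 0.11 and −0.06. The 7 liver and pancreas markers, checked because Onecut1 is a liver factor, summed to 0.440 to 1.14 CPM in KO and 0.332 to 0.493 CPM in WT, and 0 of them had enough counts to be tested.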

How the data were processed

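Per the labels' protocols, dissected tissue was frozen, its RNA isolated on columns and Illumina libraries prepared. The authors deposited unnormalized counts for every gene in a separate file for each library. The submitters' processing notes name featureCounts 1.4.6-p1 (counting), STAR 2.3.0e, DESeq2 1.8.2, FastQC 0.10.1, SAMtools 0.1.18 and build mm10. Their settings, the annotation release and strand use: not given in the sources used here. The 5 summary rows held 0 counts and were left out. Symbols, exons and transcripts came from GENCODE M21, in which 36602 of 38355 identifiers matched; Drgx and Slc18a3 were not analysed here.

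KO and WT were compared with edgeR 4.0.16 (R 4.3.3): filterByExpr, TMM factors (0.991 to 1.01), and a robust quasi-likelihood F test on group, with p-values of the 16068 tested genes adjusted by Benjamini-Hochberg (threshold 0.05). SE was derived from the fold change and its F statistic, and intervals are 95%. Log2 CPM used a prior count of 2. In the smallest library 1 CPM equals 23.1 counts. All libraries of a group differed beyond sampling noise. Members were chosen, and lists written, with earlier results of these data known. Named were the 7 members, Prdm12, up to 4 genes of smallest p per list and the nearest genes by pattern, of which the report gives the closest; Neurod4, Zfp423, Zfp521 and Mnx1 were added after their values were seen. A few genes covered by this rule are not reported here. The results were recomputed with different scalings and low-count filters, limma-voom (limma 3.58.1), DESeq2 1.42.0, a replicate term, a mesenchyme and muscle covariate, WT replicate 1 thinned, and without each library in turn. Figures used matplotlib 3.10.9.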

Additional observations from a re-analysis of the deposited data

How the results depend on the processing

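In each of 17 alternatives 0 of the 7 EBF and Onecut genes passed. Ebf1, Onecut1, Onecut2 and Onecut3 kept a negative log2 fold change in all 17, and the smallest adjusted p of any member was 0.147 (Onecut2, limma-voom). The unadjusted p was under 0.05 in 16 of the 17 for Onecut2 and in 12 for Onecut1. It was so in 2 each for Ebf1 and Onecut3, and in 0 for Ebf2, Ebf3 and Ebf4. The alternatives reuse the same libraries, so these counts are not independent evidence. Leaving out 1 library at a time, Ebf3 ranged from −0.0274 to 0.0585 and Ebf4 from −0.00722 to 0.195. Limma-voom gave −0.0013 for Ebf3, and the mesenchyme and muscle covariate gave −0.0253 for Ebf2, −0.0027 for Ebf3 and −0.0935 for Ebf4; the cause was not tested. Over all genes, 39 were lower and 9 higher in KO. DESeq2 called 82 lower and 20 higher, limma-voom 103 and 23, and the covariate fit 7 and 0 (491 lower and 201 higher at an unadjusted p under 0.05). Without 1 library, lower genes ranged from 12 to 112 and higher genes from 3 to 21, each highest without WT replicate 1. A replicate block called 14 lower and 2 higher genes. The labels do not say whether same-numbered libraries share more than the number. Their deviations correlated at −0.35, 0.62, −0.51 and 0.37 over 10588 genes, and no KO library correlated best with the WT library of its number. These correlations cannot settle whether the libraries were prepared in pairs. Under the block 0 of 7 members passed. Per kilobase of the longest transcript, Ebf1, Ebf2 and Ebf3 averaged 21.3, 23.4 and 61.0 CPM, against 13.1, 17.6 and 33.0 CPM per kilobase of merged exons, as their longest transcripts hold fewer bases. Without exon bases of other genes, an alternative chosen after seeing the data, Onecut1 averaged 2.47 CPM per kilobase against 1.17 CPM per kilobase. Onecut1 rests on few counts, which limits its precision.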
